A study of Danio rerio with 2 samples.

Results

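The genes described here are 76 DNA repair and checkpoint genes, chosen by their names from the 32105 genes of the deposited zebrafish table: the Fanconi, Rad, Xrcc, Ercc, mismatch repair, damage kinase, Parp and translesion polymerase families and their close partners. One library came from *add1* knockout embryos and the other from siblings labelled wild type, both at 22 hours post fertilization. Both were made from cells sorted for EGFP driven by a *gata1* transgene, which marks early red cells, so the transgene was carried by both groups. The comparison addressed which transcripts differ in mutant erythroblasts at an age when red cell numbers still look normal. There was 1 library per genotype, of 5956344 counts for the mutant and 6157792 counts for the sibling, and how many embryos went into each is not given in the sources used here.

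No difference below has a replicate check, so an effect of genotype and one of how each batch of cells was prepared cannot be told apart. Levels are CPM (counts scaled to a library total of 1000000), and comparisons of level between genes use the deposited FPKM, which also divide by gene length. A fold is a ratio of CPM with its exact 95% counting interval in brackets. These intervals cover the counting of reads only, without molecular identifiers, and no spread between embryos. All of them use library totals, and another scaling would move them with the fold. A log2 ratio is of CPM + 1, mutant over sibling. Genes counted as measured had at least 10 CPM in one library or the other. Lower and higher give the sign of the log2 ratio. Where a count is of genes past 2-fold by that ratio, the text says so.

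Cells meet many kinds of DNA damage with separate sets of proteins. Damaged or mispaired bases are cut out by base excision, nucleotide excision and mismatch repair, and broken ends are either joined directly or repaired by copying a sister chromatid through homologous recombination. Interstrand crosslinks need the Fanconi proteins, and translesion polymerases copy past lesions that stop the fork. The kinases Atm and Atr sense breaks and stalled forks and halt the cell cycle. Recombination and Fanconi genes are mostly used in S and G2 phase, and erythroblasts divide rapidly.

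The labels were checked first. *add1* had 18 counts in mutant cells and 1166 in sibling cells, 62.7-fold lower (39.5 to 106). All 21 genes of an erythroid marker list were measured, at 49678 CPM in sum in mutant cells against 92927 CPM in sibling cells, with 18 of the 21 lower and 7 at least 2-fold lower. Over all measured genes 39.2% were lower and 2.56% at least 2-fold lower. The same mutant library held more RNA of other tissues: skeletal muscle markers summed to 15175 CPM in mutant cells against 5169 CPM in sibling cells, hatching gland and notochord markers to 5426 CPM in mutant cells against 2236 CPM in sibling cells, neural markers to 660 CPM in mutant cells against 276 CPM in sibling cells and epidermal markers to 3651 CPM in mutant cells against 2213 CPM in sibling cells. Most of the sibling sum of the hatching gland and notochord list was *klf17*, at 2059 CPM in mutant cells against 2027 CPM in sibling cells, and without it the list summed to 3368 CPM in mutant cells against 209 CPM in sibling cells. Of the measured markers of these 4 lists, 17 of 25, 10 of 12, 10 of 15 and 5 of 17 were at least 2-fold higher, against 10.1% of all measured genes. Endothelial markers summed to 419 CPM in mutant cells against 325 CPM in sibling cells, with 0 of 15 past 2-fold, and myeloid markers to 2215 CPM in mutant cells against 2344 CPM in sibling cells, with 6 of 20 at least 2-fold lower and 1 at least 2-fold higher. The muscle genes *tnnt1* and *mybpc1*, the notochord gene *matn3b* and the neural genes *atoh7* and *sox11a* were at 0 in both libraries, and the neural genes *sox11b* and *neurog1* in the sibling library only. The myeloid gene *marco* was at 0 in mutant cells. What part these cells have in any result below was not tested. In bulk RNA, fewer cells of a type and less RNA per cell cannot be told apart.

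Of the 76 genes, 64 were measured and 12 stayed below the minimum. As a group they lay on both sides of no difference, with a larger share lower than among all measured genes. All 6 measured genes of break resection, a class drawn up after the values were seen, had a log2 ratio below 0. The median log2 ratio was -0.09, against 0.13 over all 9672 measured genes, a difference of -0.22. Of the 64, 37 (57.8%) were lower in the mutant library, against 39.2% of all measured genes, and 39 were below the median of all genes. At least 2-fold lower were 2 (3.13%), against 2.56% of all genes, and at least 2-fold higher were 4 (6.25%), against 10.1% of all genes. The counting interval lay wholly below 1 for 23 members (35.9%) and wholly above 1 for 14 (21.9%), against 21.9% and 40.0% of all measured genes. The summed level of the 76 genes was 2803 CPM in mutant cells and 2952 CPM in sibling cells, 1.05-fold lower (1.03 to 1.08).

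The scaling moved this balance. With TMM factors (a scaling that discounts the most abundant and most different genes) the median over all measured genes was -0.08 in place of 0.13, and the members' median was -0.28, a difference of -0.21. Then 44 of 64 members (68.8%) were lower, against 56.1% of all genes, 5 at least 2-fold lower, against 4.52%, and 4 at least 2-fold higher, against 7.05%. The 6 members past 2-fold with library totals, *apex1* and *exo1* lower and *parp3*, *rev1*, *xpc* and *ercc6l2* higher, were past it under all 5 scalings tried. A scaling shifts every ratio by nearly the same amount, so this was no independent check. *xpc* and *ercc6l2* reached the minimum in mutant cells only. With the minimum required in both libraries, 2 of 57 members were at least 2-fold higher, against 427 of 8242 genes. None of the 76 genes lies on chromosome 21 between its start and the end of *add1*. Beyond that stretch, *chek1* lies on the same chromosome, from 22521549 to 22528565, while *add1* ends at 2042174. Linkage to the mutated locus was not tested. The spans of 22 of the 76 genes overlap another gene with counts, among them *apex1*, *exo1*, *tp53bp1*, *ercc5*, *msh6* and *lig3*, so their reads may be shared. The overlap was 20196 bases for *ercc5* (with *cul4a*) and 6672 bases for *xrcc6bp1* (with *mtpn*). It was 794 bases for *fancl*, with *vrk2* at 44.3 CPM in mutant cells against 13.3 CPM in sibling cells. For *msh6* it was only 21 bases with a counted gene, and for *lig3* 36 bases. *parp3*, *rev1* and *xpc* overlap no other gene.

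**Figure D1:**
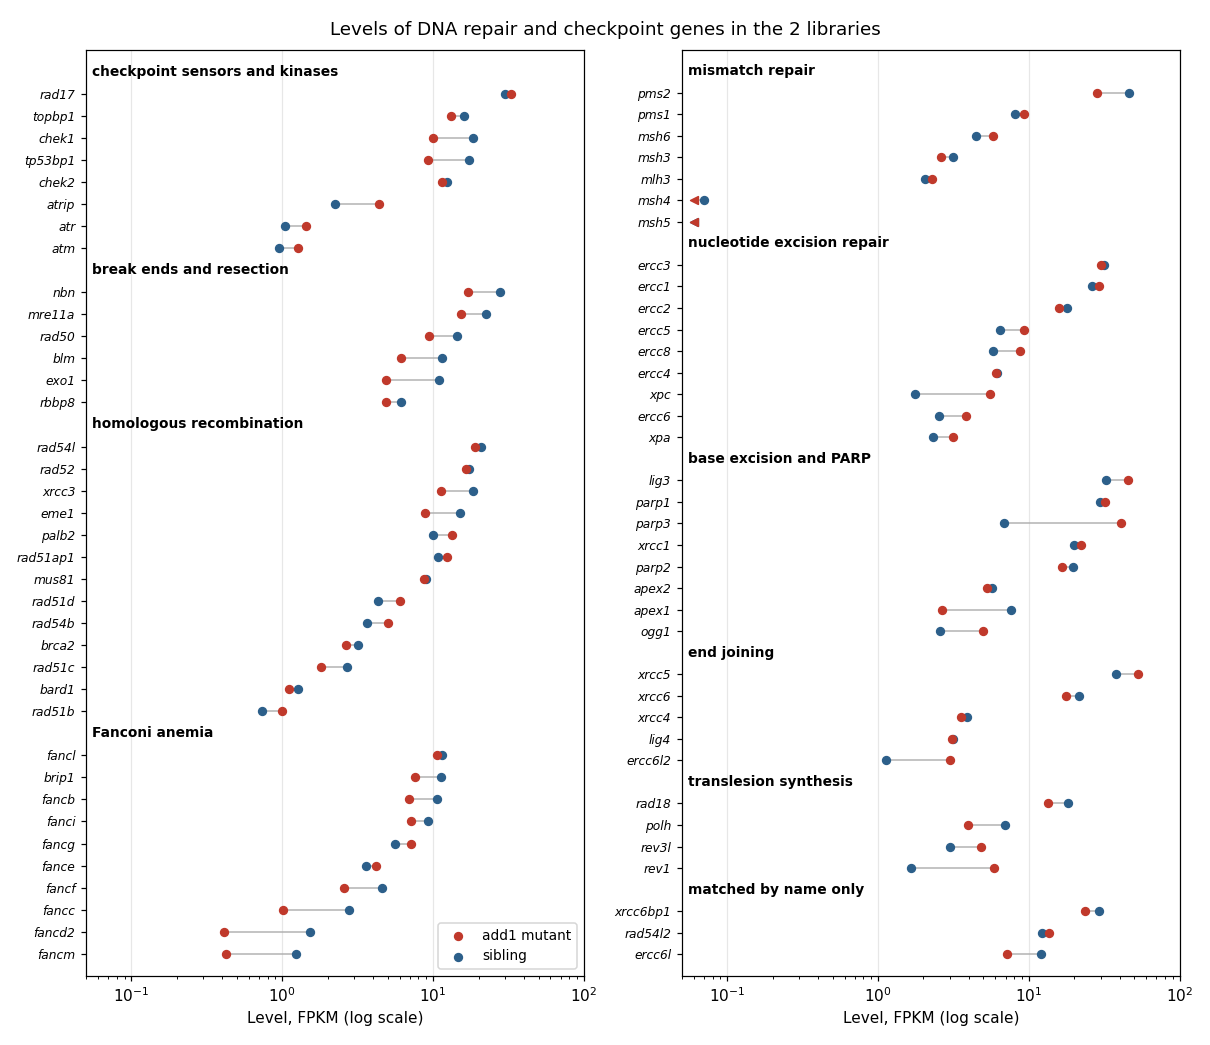
Level in FPKM (log axis) of 73 of the 76 genes in the *add1* mutant library (red) and the sibling library (blue), grouped by role, with each gene's 2 values joined by a line and triangles marking genes listed at 0. *xrcc5* had the highest level in the mutant library, at 53.2 FPKM, while *msh4* and *msh5* were at or near 0 in both.

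Among the checkpoint genes, *tp53bp1* and *chek1* were lower in mutant cells, *atrip* was higher, and the kinases *atm*, *atr* and *chek2* did not differ beyond counting error. *tp53bp1*, whose protein binds chromatin at breaks and shields the ends from resection, had 414 counts in mutant cells and 804 in sibling cells, or 69.5 CPM in mutant cells against 131 CPM in sibling cells, 1.88-fold lower (1.67 to 2.12). *chek1*, the kinase that carries the Atr signal to the cell cycle machinery, was at 19.1 CPM in mutant cells against 35.4 CPM in sibling cells, 1.85-fold lower (1.47 to 2.34). With library totals both stayed short of the 2-fold rule, and with TMM factors both passed it, at log2 ratios of -1.10 and -1.05. *chek2*, the corresponding effector of Atm, was at 20.7 CPM in mutant cells and 22.6 CPM in sibling cells, within counting error (1.09-fold lower, 0.851 to 1.40).

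On the sensor side no gene was lower by as much. *atrip*, the partner that brings Atr to single-stranded DNA, was at 16.6 CPM in mutant cells against 8.44 CPM in sibling cells, 1.97-fold higher (1.39 to 2.81). This gene reached the minimum in mutant cells only. *atr* itself had 84 counts in mutant cells and 63 in sibling cells (1.38-fold, 0.982 to 1.94), and *atm* had 81 in mutant cells and 63 in sibling cells (1.33-fold, 0.945 to 1.88). Both intervals include 1, so no difference was detectable at this depth. *topbp1*, an activator of Atr, was at 68.7 CPM in mutant cells against 84.0 CPM in sibling cells, and *rad17*, which loads the checkpoint clamp and had the highest FPKM of this class, at 32.6 FPKM in mutant cells against 29.9 FPKM in sibling cells. The sign of *rad17* depended on the scaling, with a log2 ratio of 0.12 by library totals and -0.08 with TMM factors. The class had 4 members lower and 4 higher, where 39.2% of all measured genes were lower, and a median of -0.00 (-0.20 with TMM).

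Genes that process broken ends were the class most uniform in direction, though the classes were drawn up after the values were seen. All 6 had a log2 ratio below 0, as did 39.2% of all measured genes. The median was -0.64 and the summed level 208 CPM in mutant cells against 343 CPM in sibling cells, 1.65-fold lower (1.54 to 1.77). *exo1*, the exonuclease that lengthens single-stranded ends and also removes the strand in mismatch repair, had 119 counts in mutant cells against 276 counts in sibling cells, or 20.0 CPM in mutant cells against 44.8 CPM in sibling cells, 2.24-fold lower (1.80 to 2.81). *blm*, the RecQ helicase that works beside it, was at 37.3 CPM in mutant cells against 70.0 CPM in sibling cells, 1.88-fold lower (1.59 to 2.22), and passed 2-fold with TMM factors (-1.09). Their ranges of counting error did not reach 1.

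The 3 subunits of the Mre11 complex, which first grips a broken end, were lower by similar amounts. *nbn* was at 52.2 CPM in mutant cells against 84.6 CPM in sibling cells, 1.62-fold lower (1.41 to 1.87). *rad50* was at 44.7 CPM in mutant cells against 68.0 CPM in sibling cells, 1.52-fold lower (1.30 to 1.78), and *mre11a* at 39.6 CPM in mutant cells against 57.8 CPM in sibling cells, 1.46-fold lower (1.23 to 1.73). Their 3 intervals overlap each other. *rbbp8*, which encodes the resection factor CtIP, had 85 counts in mutant cells and 111 in sibling cells, and its interval included 1 (1.26-fold lower, 0.944 to 1.70).

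**Figure D2:**
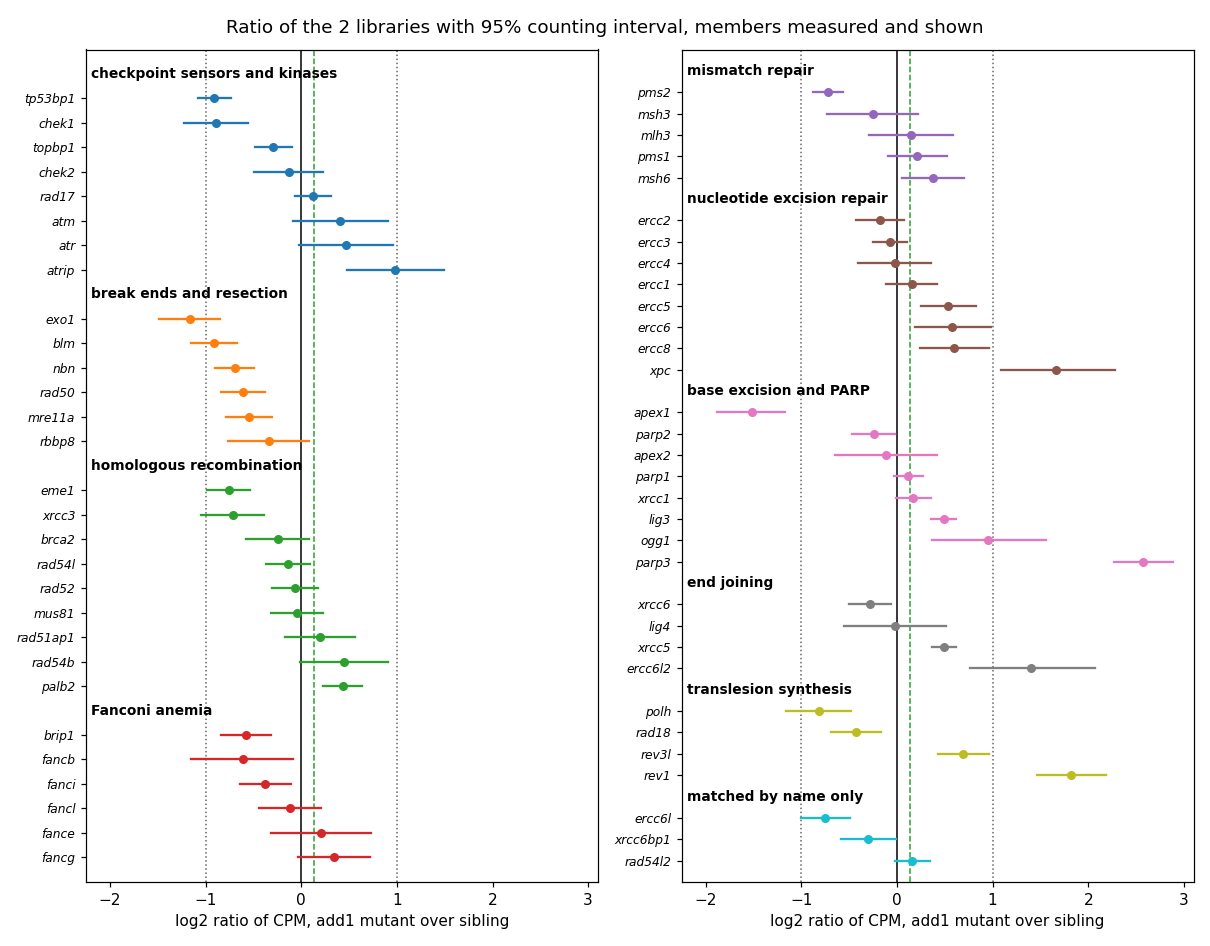
Log2 ratio of CPM, *add1* mutant over sibling, for 61 of the 64 measured members by role, with bars for the 95% counting interval. The solid line marks no difference, dotted lines mark 2-fold, and the green dashed line marks the median of all measured genes, 0.13. The 6 end processing genes lie left of 0, and *parp3*, *rev1*, *xpc* and *ercc6l2* lie beyond the right dotted line.

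Homologous recombination genes went both ways, more of them lower. Of 14 members 10 were measured, 7 lower (70.0%) and 3 higher, where 39.2% of all measured genes were lower. The median was -0.10, against 0.13 over all genes, and 0 were past 2-fold. Over all measured genes, 2.56% were at least 2-fold lower and 10.1% at least 2-fold higher. *eme1*, a subunit of a nuclease that cuts joined molecules, was at 42.3 CPM in mutant cells against 71.6 CPM in sibling cells, 1.69-fold lower (1.45 to 1.98). *xrcc3*, a recombination factor, was at 20.5 CPM in mutant cells against 33.6 CPM in sibling cells, 1.64-fold lower (1.31 to 2.07).

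Several direct partners differed less or were higher. *mus81*, the catalytic partner of Eme1, was at 37.1 CPM in mutant cells against 38.2 CPM in sibling cells (1.03-fold lower, 0.852 to 1.24). *brca2*, which prepares resected ends for strand exchange, had 145 counts in mutant cells against 178 counts in sibling cells (1.19-fold lower, 0.948 to 1.49). *palb2*, which ties Brca2 to damaged chromatin, was at 76.2 CPM in mutant cells against 56.5 CPM in sibling cells, 1.35-fold higher (1.17 to 1.56), the highest log2 ratio of CPM + 1 among the measured genes of the class. The annealing factor *rad52* and the translocase *rad54l* were at 46.5 CPM in mutant cells against 48.7 CPM in sibling cells and 49.0 CPM in mutant cells against 53.9 CPM in sibling cells. With library totals these differences were within counting error. *bard1*, *rad51b*, *rad51c* and *rad51d* stayed below 10 CPM in both libraries, with 17 to 46 counts in mutant cells and 13 to 43 in sibling cells.

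The Fanconi genes held 4 of the 12 members under the minimum. *fancl*, the ubiquitin ligase subunit, had the highest FPKM of the class, at 10.6 FPKM in mutant cells against 11.5 FPKM in sibling cells. Of 10 genes 6 were measured, 4 lower and 2 higher, where 39.2% of all measured genes were lower. Of the 6, *fancb*, counted as lower, reached the minimum in sibling cells only. *fance*, counted as higher, reached it in mutant cells only. The median was -0.24. In sum the level was 148 CPM in mutant cells against 191 CPM in sibling cells, 1.30-fold lower (1.19 to 1.42). *brip1*, a helicase that also binds BRCA1 in human cells, was at 33.6 CPM in mutant cells against 50.2 CPM in sibling cells, 1.49-fold lower (1.25 to 1.79). *fanci*, a subunit of the clamp that the pathway ubiquitinates, was at 35.1 CPM in mutant cells against 45.5 CPM in sibling cells, 1.30-fold lower (1.08 to 1.56). *fancg* of the core complex was the highest, at 22.8 CPM in mutant cells against 18.0 CPM in sibling cells, with an interval that included 1 (1.27-fold higher, 0.979 to 1.64).

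The lowest ratios of the class lay under the minimum. *fancd2*, the other subunit of that clamp, had 14 counts in mutant cells and 54 in sibling cells, or 2.35 CPM in mutant cells against 8.77 CPM in sibling cells, 3.73-fold lower (2.04 to 7.27). *fancc*, a core complex subunit, had 20 counts in mutant cells against 57 counts in sibling cells, or 3.36 CPM in mutant cells against 9.26 CPM in sibling cells, 2.76-fold lower (1.63 to 4.84). Their sibling levels were just short of the 10 CPM needed to be measured, so neither enters the counts above. With a minimum of 1 CPM both would count as at least 2-fold lower. *fancf* had 23 counts in mutant cells against 42 counts in sibling cells and *fancm* 4 counts in mutant cells against 12 counts in sibling cells.

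Mismatch repair genes centred on a median of -0.23 over 7 measured genes. Of these 4 were lower and 3 higher, where 39.2% of all measured genes were lower. In this class 0 were past 2-fold, against 2.56% of all measured genes lower and 10.1% higher by that much. *pms2*, which nicks the strand to be repaired, was the exception in size, at 89.7 CPM in mutant cells and 148 CPM in sibling cells, 1.65-fold lower (1.48 to 1.84). *msh6*, a subunit that recognises mismatches, was higher, at 30.6 CPM in mutant cells against 23.5 CPM in sibling cells, 1.30-fold higher (1.04 to 1.63). The meiotic genes *msh4* and *msh5* had 0 counts in mutant cells, and 2 and 0 in sibling cells, below what 3 counts would give (0.504 and 0.487 CPM).

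Nucleotide excision repair genes had a median of 0.34 (0.14 with TMM), with 5 of 8 measured genes higher, where 60.8% of all measured genes were. Without *xpc*, which reached the minimum in mutant cells only, the median of the other 7 was 0.15, against 0.13 for all genes. *xpc*, the sensor that finds helix-distorting lesions across the genome, had 101 counts in mutant cells and 33 in sibling cells, or 17.0 CPM in mutant cells against 5.36 CPM in sibling cells, 3.16-fold higher (2.12 to 4.84). A second gene of that step was also higher: *ddb2*, which recognises ultraviolet damage and is not among the 76 genes, was at 74.7 CPM in mutant cells against 30.7 CPM in sibling cells, 2.43-fold higher (2.05 to 2.90). Of the 16 measured genes on a list of partners of this pathway, 4 were lower and 12 higher. A further partner, *rad23b*, was below the minimum in both libraries. It had 2 counts in mutant cells against 60 counts in sibling cells, 29.0-fold lower (7.69 to 245). The *xpc* locus lies on chromosome 8 from 25988851 to 26011811 (GRCz10).

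The genes that start repair at stalled RNA polymerase were also higher, by less. *ercc6* and *ercc8*, the Cockayne syndrome genes, were at 22.3 CPM in mutant cells against 14.9 CPM in sibling cells and 27.0 CPM in mutant cells against 17.9 CPM in sibling cells, 1.49-fold (1.14 to 1.97) and 1.51-fold (1.18 to 1.95) higher. *ercc5*, the nuclease that cuts on the 3′ side of the lesion, was at 40.3 CPM in mutant cells against 27.8 CPM in sibling cells, 1.45-fold higher (1.19 to 1.78). Its span lies within that of *cul4a*, so reads may be shared. With library totals the shared core was not different beyond counting error, though TMM factors gave *ercc2* and *ercc3* log2 ratios of -0.37 and -0.27. *ercc2* and *ercc3*, the TFIIH helicases, were at 41.0 CPM in mutant cells against 46.4 CPM in sibling cells and 82.9 CPM in mutant cells against 87.4 CPM in sibling cells, and *ercc1* and *ercc4*, the nuclease pair of the 5′ side, at 40.5 CPM in mutant cells against 36.4 CPM in sibling cells and 19.5 CPM in mutant cells against 19.8 CPM in sibling cells. The sign of *ercc1* changed with the scaling (0.15 by library totals, -0.05 with TMM). *xpa* had 42 counts in mutant cells against 32 counts in sibling cells and was not measured.

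The base excision and Parp class held the extremes at both ends. *parp3*, a poly(ADP-ribose) polymerase that acts with end joining factors at double-strand breaks in human cells, had 598 counts in mutant cells and 104 in sibling cells, or 100.4 CPM in mutant cells against 16.9 CPM in sibling cells. This was 5.94-fold higher (4.82 to 7.39), the highest ratio of the 64 measured members and the only one past 4-fold. The gene lies on chromosome 6 from 42040822 to 42051814. Its paralogs differed less between the libraries. *parp1*, the main polymerase activated by strand breaks, was at 122 CPM in mutant cells against 112 CPM in sibling cells (1.08-fold, 0.976 to 1.21), and its sign changed with TMM factors (-0.08). *parp2* was at 49.9 CPM in mutant cells against 58.9 CPM in sibling cells, 1.18-fold lower (1.01 to 1.38).

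At the low end stood *apex1*, the main endonuclease that cuts DNA at abasic sites. It had 90 counts in mutant cells and 267 in sibling cells, or 15.1 CPM in mutant cells against 43.4 CPM in sibling cells, 2.87-fold lower (2.25 to 3.69). The table's span for this gene, chromosome 4 from 5325418 to 5655206, takes in 17 other genes, so how reads were divided there is uncertain. *apex2* had 58 counts in mutant cells against 65 counts in sibling cells. Other steps were higher: *ogg1*, the glycosylase for oxidised guanine, was at 11.9 CPM in mutant cells against 6.17 CPM in sibling cells, 1.93-fold higher (1.28 to 2.94), and *lig3*, the ligase that seals single-strand breaks and also serves mitochondria, at 196 CPM in mutant cells against 139 CPM in sibling cells, 1.40-fold higher (1.28 to 1.53). Of these 2 genes, *ogg1* reached the minimum in mutant cells only. *xrcc1*, the scaffold that binds Lig3, was at 85.8 CPM in mutant cells against 76.2 CPM in sibling cells, with an interval that included 1 and a sign that depended on the scaling (0.17, and -0.03 with TMM).

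**Figure D3:**
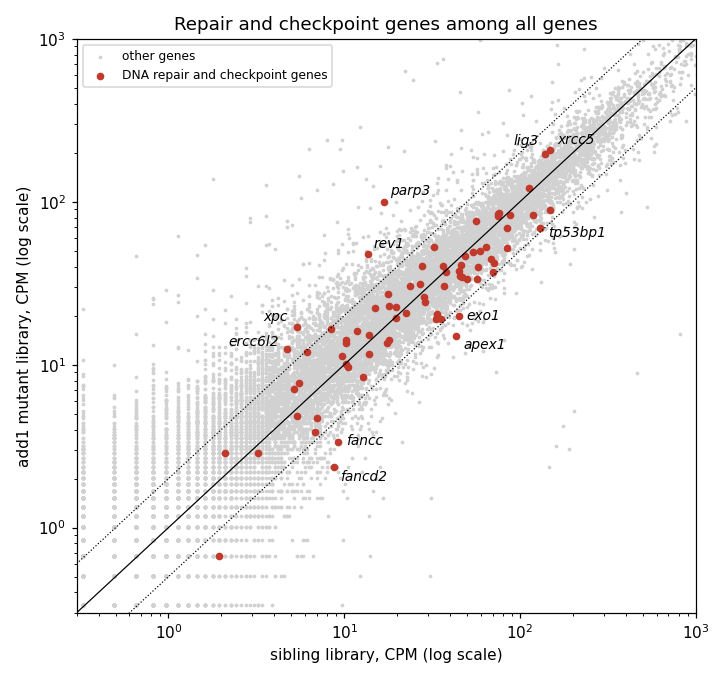
Each gene's CPM in the *add1* mutant library (vertical, log axis) against the sibling library (horizontal, log axis), with the repair and checkpoint genes in red over all other genes in grey. The solid line marks equal levels and dotted lines mark 2-fold. *parp3* stands highest above the upper line, at 100.4 CPM in mutant cells against 16.9 CPM in sibling cells, and *apex1* below the lower one, at 15.1 CPM in mutant cells against 43.4 CPM in sibling cells.

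End joining genes were uneven too. The 2 subunits of Ku, the ring that binds broken ends, went in opposite directions: *xrcc5* (Ku80) was at 207 CPM in mutant cells against 147 CPM in sibling cells, 1.41-fold higher (1.29 to 1.53), and *xrcc6* (Ku70) at 52.7 CPM in mutant cells against 64.1 CPM in sibling cells, 1.22-fold lower (1.05 to 1.42). *ercc6l2*, a helicase-like protein tied to end joining in human cells, had 74 counts in mutant cells and 29 in sibling cells, or 12.4 CPM in mutant cells against 4.71 CPM in sibling cells, 2.64-fold higher (1.70 to 4.20). This gene reached the minimum in mutant cells only. *lig4*, the ligase of this pathway, had 60 counts in mutant cells against 63 counts in sibling cells (1.02-fold lower, 0.702 to 1.47), and *xrcc4*, its partner, 29 counts in mutant cells against 33 counts in sibling cells.

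The 4 translesion genes were split 2 and 2, where 39.2% of all measured genes were lower. *rev1*, a polymerase that places C opposite missing bases and docks the other translesion polymerases, had 286 counts in mutant cells and 84 in sibling cells, or 48.0 CPM in mutant cells against 13.6 CPM in sibling cells, 3.52-fold higher (2.75 to 4.54). *rev3l*, the catalytic subunit of polymerase zeta, which extends past the lesion with Rev1, was at 52.5 CPM in mutant cells against 32.5 CPM in sibling cells, 1.62-fold higher (1.35 to 1.94). In contrast *polh*, the polymerase that copies ultraviolet lesions, was at 19.0 CPM in mutant cells against 33.5 CPM in sibling cells, 1.76-fold lower (1.40 to 2.24). *rad18*, the ligase that marks PCNA to call such polymerases, was at 34.8 CPM in mutant cells against 46.8 CPM in sibling cells, 1.35-fold lower (1.12 to 1.62). None of these 4 intervals included 1.

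The name pattern also took in 3 genes that are not known as repair genes or act elsewhere. *ercc6l*, a helicase of mitotic chromosome bridges, was at 33.7 CPM in mutant cells against 56.7 CPM in sibling cells, 1.68-fold lower (1.41 to 2.01). *xrcc6bp1* was at 30.2 CPM in mutant cells against 37.2 CPM in sibling cells, and *rad54l2*, a chromatin remodeller that binds nuclear receptors, at 83.8 CPM in mutant cells against 75.0 CPM in sibling cells with a sign that changed under TMM (-0.04). Without the 3, the median of 61 measured genes was -0.07.

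The members' ratios were also set beside their level and gene length. Over the 22 genes with the lowest mean level (8.57 to 26.2 CPM) the median log2 ratio was 0.19, and 9 of them were lower. Of these 22, 5 reached the minimum in mutant cells only and 2 in sibling cells only, so the minimum itself favours higher ratios there. Over the 15 that reached it in both the median was 0.14, with 7 lower. Over the 21 genes of middle level and the 21 of highest level the medians were -0.24 and -0.24, with 15 and 13 genes lower. Among all measured genes, of any level, 39.2% were lower. By the length implied by counts and FPKM, the medians were -0.13 for the 22 shortest genes, 0.17 for the 21 of middle length and -0.24 for the 21 longest. The members' log2 ratios had quartiles of -0.44 and 0.37, and those of all measured genes -0.19 and 0.51.

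Genes that work with the members were taken from 8 further lists, 123 measured genes in all without the members. Of these 73 were lower and 50 higher, 6 at least 2-fold lower and 3 at least 2-fold higher, with a median of -0.13, where 39.2% of all measured genes were lower and 2.56% and 10.1% past 2-fold. The S phase list below holds 13 of the 123. Without them 60 were lower and 50 higher, 3 were past 2-fold each way, and the median was -0.08. Nucleotide excision partners had a median of 0.16 with 12 of 16 higher, though -0.04 with TMM factors, and the single-strand binding and clamp genes one of -0.66 with 11 of 13 lower, of which list 9 genes are S phase genes too. *rpa1*, the large subunit of the complex that coats single-stranded DNA, was at 540 CPM in mutant cells against 1167 CPM in sibling cells, 2.16-fold lower (2.07 to 2.25). *rpa2* and *rpa3*, its other subunits, were at 207 CPM in mutant cells against 399 CPM in sibling cells and 39.5 CPM in mutant cells against 73.9 CPM in sibling cells, and *rfc1*, the large subunit of the clamp loader, at 41.8 CPM in mutant cells against 88.2 CPM in sibling cells.

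In the remaining lists the members with the largest ratios were of both kinds. Checkpoint partners had 15 of 23 lower, against 39.2% of all measured genes. *cdc25b*, the phosphatase that releases cells into mitosis, was at 183 CPM in mutant cells against 448 CPM in sibling cells, while *plk3*, a stress-responsive polo kinase, was at 262 CPM in mutant cells against 61.2 CPM in sibling cells, 4.28-fold higher (3.82 to 4.80). *rnf169*, a ligase that binds ubiquitinated chromatin at breaks and competes with Tp53bp1, was at 141 CPM in mutant cells against 34.1 CPM in sibling cells, 4.13-fold higher (3.55 to 4.83). *paxip1*, another protein recruited to breaks, was at 46.3 CPM in mutant cells against 72.8 CPM in sibling cells.

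Recombination partners had 18 of 29 lower, against 39.2% of all measured genes. Among the 18 was *recql4*, a helicase of origins and ends that the table lists as RECQL4, with 23 counts in mutant cells against 89 counts in sibling cells (3.74-fold lower, 2.34 to 6.21). The nuclease *dna2* was at 34.9 CPM in mutant cells against 70.8 CPM in sibling cells, *swi5* at 13.1 CPM in mutant cells against 26.8 CPM in sibling cells and *tonsl* at 48.0 CPM in mutant cells against 82.5 CPM in sibling cells. Fanconi partners had 8 of 11 lower and 0 past 2-fold, where 2.56% of all measured genes were at least 2-fold lower and 10.1% at least 2-fold higher. *usp1*, which removes ubiquitin from the clamp, was at 74.0 CPM in mutant cells against 115 CPM in sibling cells and *uhrf1* at 147 CPM in mutant cells against 251 CPM in sibling cells. The 8 lower include *dclre1c*, which encodes Artemis, a nuclease of end joining. It was at 10.9 CPM in mutant cells against 16.9 CPM in sibling cells, and *slx4ip* was at 28.7 CPM in mutant cells against 19.0 CPM in sibling cells.

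Mismatch and base excision partners had 12 of 20 lower, against 39.2% of all measured genes. The glycosylase *neil3* was at 11.4 CPM in mutant cells against 34.1 CPM in sibling cells, 2.99-fold lower (2.26 to 3.99), and *pole*, the leading strand polymerase, at 33.1 CPM in mutant cells against 80.1 CPM in sibling cells, 2.42-fold lower (2.05 to 2.87). *tdg.2*, a thymine glycosylase gene, was at 40.6 CPM in mutant cells against 20.5 CPM in sibling cells and *alkbh3*, which removes methyl groups from bases, at 19.0 CPM in mutant cells against 10.4 CPM in sibling cells, both short of 2-fold. Translesion partners had 6 of 9 lower, with *pcna* at 656 CPM in mutant cells against 1122 CPM in sibling cells, but *poli*, a further polymerase, at 11.4 CPM in mutant cells against 5.52 CPM in sibling cells and *ube2a*, the Rad18 partner enzyme, at 231 CPM in mutant cells against 115 CPM in sibling cells. Of 4 measured end joining partners, a list without *dclre1c*, 3 were higher, where 60.8% of all measured genes were. With TMM factors 3 of the 4 were lower. *paxx* (listed as zgc:193538) was at 24.5 CPM in mutant cells against 13.8 CPM in sibling cells. *prkdc*, the DNA-dependent kinase, was at 7.22 CPM in mutant cells against 11.5 CPM in sibling cells. In nucleotide excision, besides *ddb2*, the ubiquitin receptor *rad23ab* was at 36.3 CPM in mutant cells against 19.8 CPM in sibling cells, *gtf2h5* at 64.0 CPM in mutant cells against 41.4 CPM in sibling cells and *cdk7* at 89.3 CPM in mutant cells against 63.2 CPM in sibling cells.

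Lists of the cell cycle and of the p53 response were set beside these. The replication and S phase list, without the members, had 50 of 52 genes lower and a median of -0.79. The mitosis list had 46 of 48 lower and a median of -0.52. Of all measured genes 39.2% were lower, and their median was 0.13. The p53 response list had 20 of 22 measured genes higher, against 60.8% of all measured genes. Of the 22, 13 were at least 2-fold higher, against 10.1% of all measured genes, and the list median was 1.35. The largest were *phlda3* (138 CPM in mutant cells against 1.79 CPM in sibling cells), *bbc3* (119 CPM in mutant cells against 6.98 CPM in sibling cells), *gadd45aa* (129 CPM in mutant cells against 8.61 CPM in sibling cells), a stress gene tied to growth arrest and repair, and *sesn3* (469 CPM in mutant cells against 45.6 CPM in sibling cells). Of these, *phlda3*, *bbc3* and *gadd45aa* reached the minimum in mutant cells only. In human cells *XPC*, *DDB2* and *POLH* are also known p53 targets, and of their zebrafish counterparts *xpc* and *ddb2* were higher and *polh* was lower in the mutant library. What part cell cycle state or p53 has in the members' ratios was not tested.

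**Figure D4:**
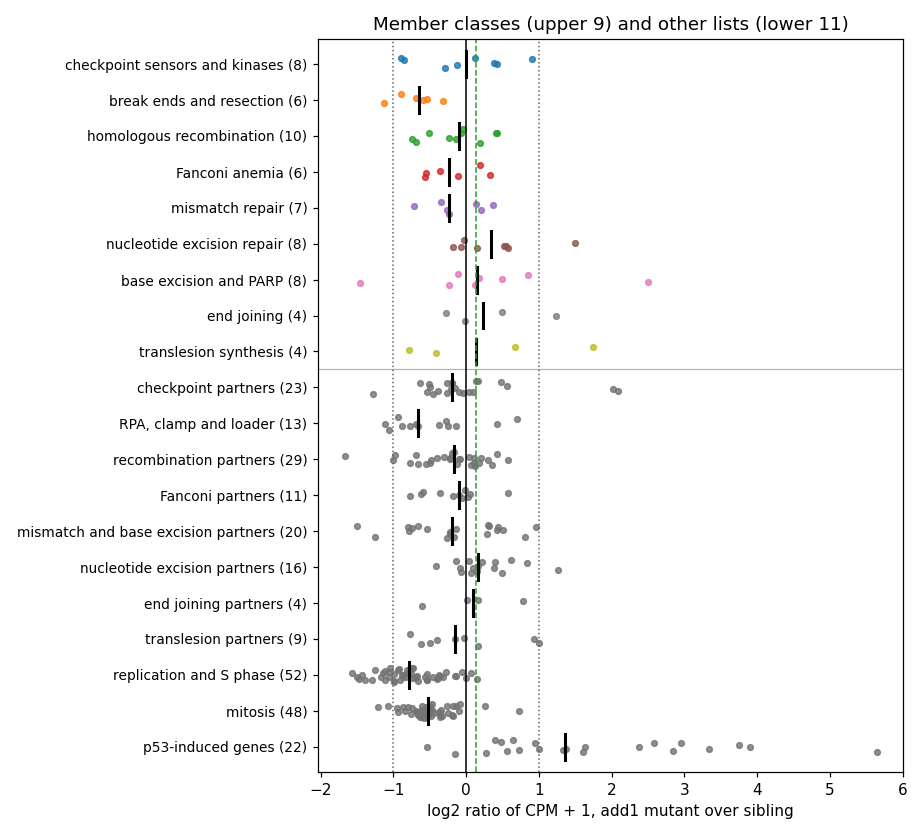
Log2 ratio of CPM + 1, *add1* mutant over sibling, for each measured gene (points, with the number in brackets) in the 9 member classes and 11 other lists, with a black bar at each median, the green dashed line at the median of all genes and dotted lines at 2-fold. The medians of the end processing class (-0.64), the RPA, clamp and loader list (-0.66) and the S phase list (-0.79) lie left of 0, and 9 of the 13 genes of the RPA, clamp and loader list are also on the S phase list.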

How the data were processed

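Per the labels' protocols, sorted cells went through the SMART-Seq HT kit, which makes full-length cDNA, and a BGISEQ-500. The build is GRCz10, per the submitters' processing notes. Which aligner and counting tool were used, with what strand setting and filters, is not given in the sources used here, so reads of overlapping or antisense genes cannot be told apart. The deposited table gives raw counts per gene and FPKM by the authors for each library.

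Members were the rows whose deposited lower-case gene name matched a pattern (76, no name repeated). The pattern carried 1 unpaired closing bracket, which was dropped. Counts were divided by library totals, as the choice of genes prescribed, and log2 ratios used CPM + 1. Counting intervals are exact (Clopper-Pearson). With 1 library per genotype no test was possible. A count of 0 allows up to 3 counts.

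The members, roles and 18 gene lists were chosen with earlier results of these data known. The roles were assigned after the values were seen, as was leaving the gene of the factor itself out of the p53 list. Named were all measured members past 2-fold, each class's highest FPKM and lowest and highest ratio, a set of 29 symbols (of which *mdc1* and *ung* are not names in the table), and up to 4 genes of each partner list and the p53 list with the largest ratio. Other members, and the partner gene *rad23b*, were named after their values were seen. All 76 gene IDs were in the name table. The values of 3 members are not reported here by name, though they enter the counts, medians and sums.

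Alternatives were 4 scalings (among them TMM by edgeR 4.0.16 in R 4.3.3, with a mutant factor of 1.07 and a sibling factor of 0.932), other pseudocounts, minimums and fold rules, FPKM, and other member definitions. The scripts ran in Python 3.11.15 with scipy 1.17.1 and were tested on simulated counts.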

Additional observations from a re-analysis of the deposited data

How the results depend on the processing

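No paired analysis was possible because each genotype had 1 library. The 2 members at least 2-fold lower became 5 of 64 with TMM, median of ratios and upper quartile scaling (adding *blm*, *tp53bp1* and *chek1*). Of all 9625 genes then measured, 435, 431 and 428 were. They became 5 of 66 with totals that leave out globin, mitochondrial and ribosomal genes (adding *fancc*, *fancd2* and *tp53bp1*), against 347 of 10022 genes. They became 4 with a minimum of 1 CPM (of 74, against 578 of 16830 genes) or none (of 75, against 578 of 21411). They became 1 with a pseudocount of 5 (of 64, against 173 of 9672) or FPKM (of 36, against 150 of 5999). With a minimum of 50 CPM there were 0 of 24, against 123 of 4254. The 4 at least 2-fold higher became 2 with the minimum in both libraries (of 57, against 427 of 8242 genes). They became 1 with 50 CPM (of 24, against 270 of 4254) and 1 with FPKM (of 36, against 434 of 5999). At 1.5-fold there were 12 lower and 7 higher of 64, against 790 and 2083 of 9672 genes. At 4-fold there were 0 and 1, against 29 and 179. By counting intervals that exclude 1 there were 23 and 14, against 21.9% and 40.0% of all measured genes. With 50 CPM, 15 of 24 members were lower in place of 37 of 64, and the share of all genes lower at that minimum is not given here. Without members whose span overlaps another gene with counts, 0 of 44 were lower by 2-fold, against 248 of all 9672 genes. This alternative was chosen after the data were seen. Both *apex1* and *exo1* overlap such a gene, and for *exo1* that gene had 8 counts in all. Other causes were not tested. The members' median stayed below 0 and below that of all genes under every alternative run, from -0.07 to -0.28. The 4 alternative scalings shift every ratio by nearly the same amount, so they could hardly change the members' place relative to all genes. Of 45 named members 5 changed sign under a scaling, *ercc1*, *parp1*, *rad17*, *rad54l2* and *xrcc1*. Values without 1 gene, *xpc* or *klf17*, were added after the data were seen and stand beside their lists. Depth limits members under 60 counts, such as *fancd2*.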

Other observations

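A few repair genes stand outside the 76 because the table names them otherwise, and they were found through their gene IDs. *mdc1*, the scaffold that spreads the damage signal on chromatin, has no symbol in the table and was at 61.6 CPM in mutant cells against 88.5 CPM in sibling cells, 1.44-fold lower (1.26 to 1.64). *unga*, an uracil glycosylase gene, was at 24.7 CPM in mutant cells against 36.5 CPM in sibling cells, 1.48-fold lower (1.20 to 1.84), and its copy *ungb* had 0 counts in both libraries. *fanca*, on an unplaced sequence, had 49 counts in mutant cells and 46 in sibling cells. XRCC2, a recombination gene listed in capitals, had 24 counts in mutant cells against 5 counts in sibling cells, 4.96-fold higher (1.86 to 16.7). A histone gene that the name table gives as *h2ax1*, of the variant that is phosphorylated at breaks, was at 377 CPM in mutant cells against 179 CPM in sibling cells, 2.10-fold higher (1.96 to 2.26), and *h2afx* at 26.2 CPM in mutant cells against 18.5 CPM in sibling cells. Taking in the genes that the name table places under the same name pattern left 2 of 66 measured members at least 2-fold lower and 4 at least 2-fold higher. Of all 9672 measured genes 248 and 981 were.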
